A study of Mus musculus with 12 samples.

Results

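Interferon-stimulated genes are the genes that cells switch on when an interferon, a cytokine released on viral or nucleic acid danger, binds its receptor. A list of 45 of them was followed through the livers of mice injured with carbon tetrachloride (CCl4), and all 45 were found by symbol among the 36528 gene IDs of the count table. Members were taken by gene family and by their standing as interferon targets, with no threshold on a measured value. Earlier results of these data were known when they were chosen, so their shares beside all tested genes are a description. All 45 passed the filter on low counts, as did 16032 genes in all.

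RNA of whole liver was sequenced from 12 mice, 6 injected with CCl4 and 6 with oil (corn oil, per the labels). Injections were intraperitoneal, 3 per week for 6 weeks in both groups. CCl4 is a solvent that hepatocytes around the central vein turn into a toxic radical, and repeated doses scar the liver. The labels give no strain, age, sex or genotype, and nothing says whether animals shared a cage or a litter, so p-values measure the spread between these livers.

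Type I interferons bind IFNAR1 and IFNAR2, and the kinases TYK2 and JAK1 then phosphorylate STAT2, which joins IRF9 in a complex that binds the interferon-stimulated response element in promoters. Interferon gamma binds IFNGR1 and IFNGR2 and acts at gamma-activated sites in promoters. Many targets block viruses or sense foreign nucleic acid, and IRF7, itself a target, drives further interferon production. In liver, hepatocytes, macrophages, endothelial and dendritic cells can all carry such a programme.

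The response element could be read in the promoters of the members. RefSeq promoter sequences (GRCm38.p6, 250 bases before to 50 after the transcription start) were found for 31 of the 45 members. The core of the element, GAAA, any 2 bases and GAAA again (TTTC, any 2 bases and TTTC on the opposite strand), was searched on both strands and stood in 21 of these 31 (67.7%). Over all 27025 genes with such a promoter the share was 3.99%. Among the members that rose after CCl4, described below, 13 of 19 held it, and among those that did not pass the test 8 of 12 did. The sequences below show that range, with the core in capitals and overlapping matches run together. They are from members that rose (Isg15, the near-identical pair Ifit3 and Ifit3b, the pair Oas1a and Oas1g, and Gbp3) and from 3 GTPase genes that did not pass (Gbp2, Gbp7 and Irgm1).
Isg15, chr4:156200855-156200916, minus strand: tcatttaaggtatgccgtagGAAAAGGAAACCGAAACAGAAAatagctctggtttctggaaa
Ifit3, chr19:34583353-34583436, plus strand: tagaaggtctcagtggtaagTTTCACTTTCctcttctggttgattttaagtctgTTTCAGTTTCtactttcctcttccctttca
Ifit3b, chr19:34607749-34607832, plus strand: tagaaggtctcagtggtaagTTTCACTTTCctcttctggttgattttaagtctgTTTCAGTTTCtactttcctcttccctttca
Oas1a, chr5:120907526-120907565, minus strand: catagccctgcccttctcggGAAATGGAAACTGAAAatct
Oas1g, chr5:120887614-120887651, minus strand: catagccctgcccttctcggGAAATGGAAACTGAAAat
Gbp3, chr3:142559979-142560034, plus strand: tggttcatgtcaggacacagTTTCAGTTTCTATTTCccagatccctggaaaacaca
Gbp2, chr3:142620584-142620633, plus strand: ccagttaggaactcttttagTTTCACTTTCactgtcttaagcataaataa
Gbp7, chr3:142530263-142530312, plus strand: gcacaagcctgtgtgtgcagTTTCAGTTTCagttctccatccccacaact
Irgm1, chr11:48871421-48871470, minus strand: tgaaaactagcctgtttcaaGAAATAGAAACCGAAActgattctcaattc

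A stricter form, the same core followed by CT and thus contained in the matches of the core, stood in 14 of 31 members (45.2%) against 0.303% of all genes. The core of the gamma-activated site, TTCNNNGAA, which reads the same on both strands, stood in 8 of 31 members (25.8%) against 9.55% of all genes. It was held by 5 of the 19 members that rose and by 3 of the 12 that did not pass. One of the latter is the promoter of Irf1, a transcription factor induced by interferon gamma, printed here with that core in capitals.
Irf1, chr11:53769904-53769952, plus strand: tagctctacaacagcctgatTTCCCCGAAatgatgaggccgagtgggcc

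A match of letters is a description of these windows and shows no binding. Whether members that rose held the response element more often than those that did not was not tested.

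Most of the 45 genes were higher after CCl4. By edgeR's quasi-likelihood test with Benjamini-Hochberg adjustment over all 16032 tested genes (threshold 0.05), 30 of 45 rose (66.7%), none fell and 15 did not pass. The background in this comparison is high: 39.0% of all tested genes passed, 20.6% as rises and 18.4% as falls. Beside the count of 0 fallen members, 1 member had a negative change at an unadjusted p under 0.05 (Gbp6), and DESeq2 and limma-voom each called 1 fallen. Of the members 19 rose at least 2-fold, a size that 11.8% of all tested genes reached. The median log2 fold change of the members was 0.84, and that of all tested genes 0.01. All 6 CCl4 livers lay above all 6 oil livers for 24 of the 45, where 12% of all tested genes did so.

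**Figure D1:**
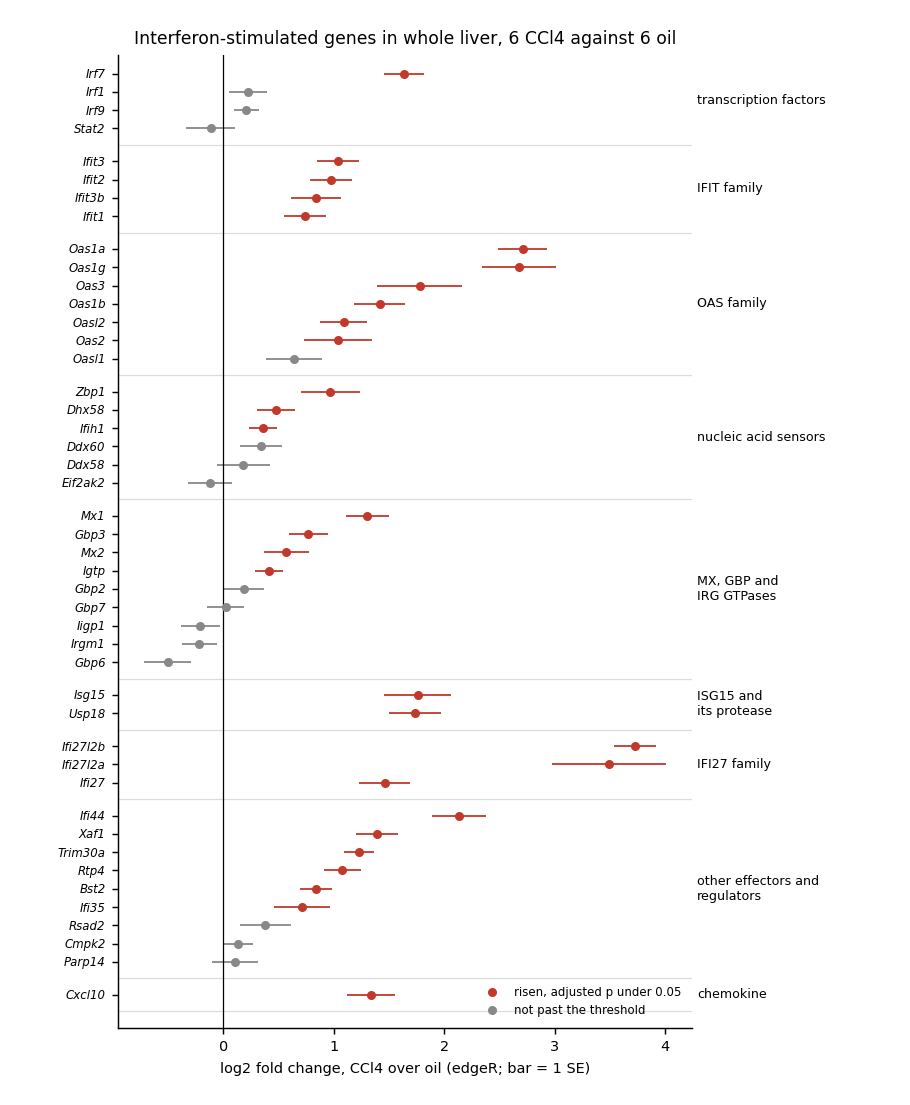
Fitted log2 fold change (CCl4 over oil, x axis) of each of the 45 genes, in blocks by role, with bars of 1 standard error; red points rose at an adjusted p under 0.05 and grey points did not pass. The changes run from -0.50 (Gbp6) to 3.73 (Ifi27l2b), and the OAS, IFIT, ISG15 and IFI27 blocks hold almost only red points.

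Levels are given as CPM, read counts scaled to library size with TMM factors. Library totals ran from 43027778 to 70375852 counts. Averaged over the 45 genes, the mean log2 CPM of the 6 oil livers was 2.92, 2.98, 2.59, 2.91, 2.67 and 3.03. In the 6 CCl4 livers it was 3.76, 3.88, 3.88, 3.51, 3.65 and 4.01. The groups did not overlap. The group means were 2.85 ± 0.18 and 3.78 ± 0.18 (SD, n = 6 each), a difference of 0.93, while the same mean over all tested genes differed by 0.07. In whole liver, more cells of a type and more RNA per cell cannot be told apart.

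**Figure D2:**
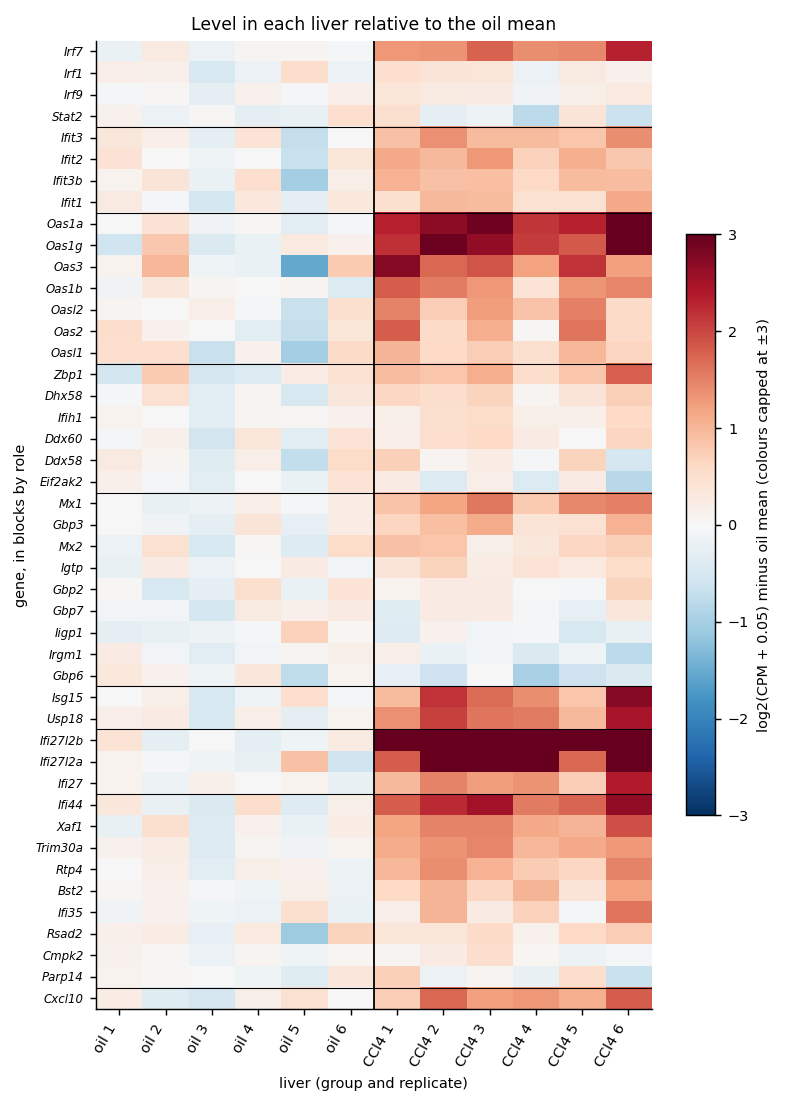
Level of each of the 45 genes (y axis, in blocks by role) in each of the 12 livers (x axis), as log2(CPM + 0.05) minus the oil mean, with colours capped at ±3. The CCl4 columns are red across the IFIT, OAS, ISG15 and IFI27 blocks and pale or mixed across the GBP and IRG genes, and CCl4 replicate 6 is the darkest column for many genes.

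The counts by role that follow stand beside a share of 20.6% risen over all tested genes. Among the transcription factors 1 of 4 rose (25%), a share near that background. That gene was Irf7 (chr7:141263183-141266499), the amplifier of interferon production. Its level was 22.4 to 30.8 CPM in the oil livers (median 25.8) and 63.6 to 128 in the CCl4 livers (median 68.3). Every CCl4 liver had more than double the highest oil value. The fold change was 3.11 (log2 1.64 ± 0.18 SE, adjusted p = 9.33e-06).

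The other 3 factors did not pass. Stat2, the signal carrier specific to type I and type III interferons, had 47.2 to 81.3 CPM in oil livers (median 55.4) and 33.2 to 80.2 in CCl4 livers (median 49.9). The ranges overlapped almost fully (log2 -0.12 ± 0.22, adjusted p = 0.696), and the sign of this change turned with upper-quartile scaling and with a correction for transcript length. Its span overlaps Apof, an abundant gene on the same strand. Irf9, its DNA-binding partner, stood at a median of 27.1 CPM in oil and 32.4 in CCl4 (log2 0.21 ± 0.12, adjusted p = 0.162). Irf1 stood at medians of 21.8 and 27.4 (log2 0.23 ± 0.17, adjusted p = 0.306).

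All 4 members of the IFIT family rose, a family that includes IFIT1, a binder of viral RNA that lacks the cap marks of the host. Ifit3 (chr19:34583119-34588982) had 2.34 to 5.15 CPM in oil livers (median 4.20) and 6.96 to 10.2 in CCl4 livers (median 7.49). The groups were apart, as for every gene of this family. Its fold change was 2.05 (log2 1.04 ± 0.19, adjusted p = 0.000826). Ifit2 changed 1.97-fold, Ifit3b 1.79-fold and Ifit1 1.67-fold (adjusted p = 0.00113, 0.00992 and 0.00731).

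Ifit3 and Ifit3b are close copies, 98.0% identical over 1697 aligned transcript bases, and the promoter stretches printed above are the same letter for letter. How reads were counted is not given in the sources used here, and the division of reads between the pair is uncertain. Their sum was 2.78 to 6.51 CPM in oil livers and 8.84 to 12.03 in CCl4 livers, 2 times higher in the mean.

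The OAS family makes or resembles the enzymes that sense double-stranded RNA, and 6 of 7 rose. Oas1a (chr5:120896256-120907544) had 0.858 to 1.5 CPM in oil livers (median 1.08) and 5.02 to 11.4 in CCl4 livers (median 6.47). The lowest CCl4 liver stood far above the highest oil liver. The fold change was 6.53 (log2 2.71 ± 0.23, adjusted p = 1.09e-06). Oas1g, its copy (97.5% identical over 1860 transcript bases), changed 6.41-fold (adjusted p = 2.96e-05), and the sum of the pair went from a median of 1.35 to 8.77 CPM.

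The other OAS genes changed less. Oas3 changed 3.42-fold (adjusted p = 0.00253), Oas1b 2.66-fold (0.000298), Oasl2 2.13-fold (0.00119) and Oas2 2.05-fold (0.0159). Oas2 was the only one of these 4 whose groups overlapped. RefSeq lists Oas1b as a transcribed pseudogene. Oasl1, described as a brake on translation of Irf7, had 5.23 to 16.1 CPM in oil (median 13.4) and 14.9 to 21.9 in CCl4 (median 17.4). That difference did not pass (log2 0.64 ± 0.25, adjusted p = 0.0589), though it did in 4 of 20 alternative analyses, 1 of them without oil replicate 6 (adjusted p = 0.0437).

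**Figure D3:**
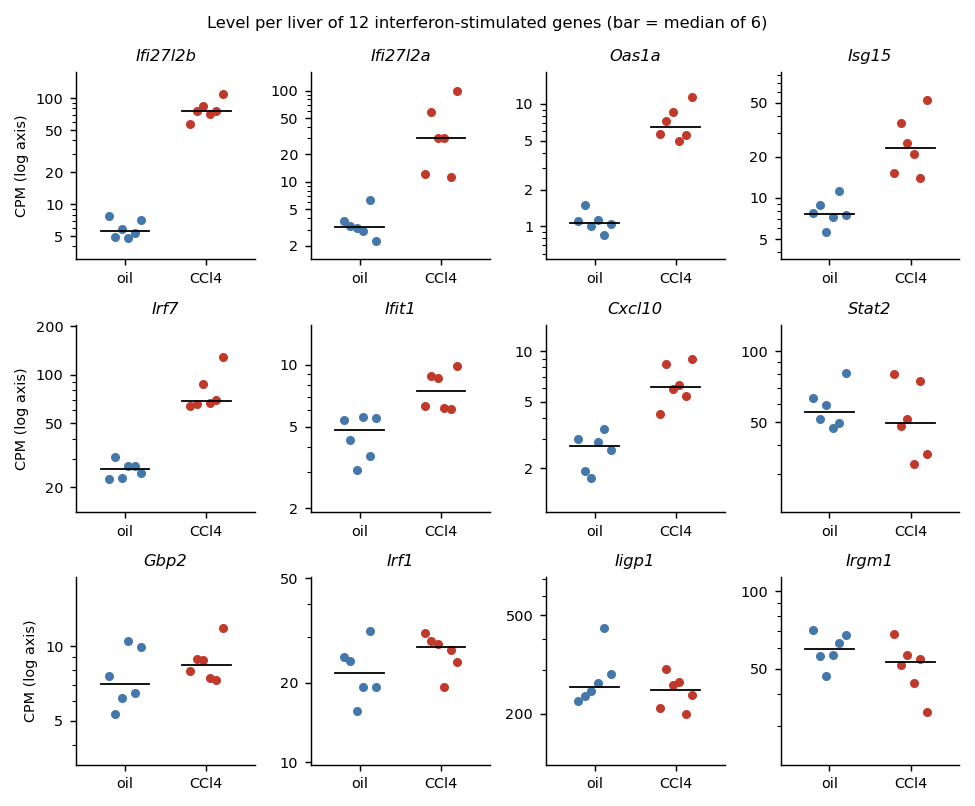
Level (CPM, log axes that differ between panels) of 12 of the genes in each oil liver (blue) and each CCl4 liver (red), with a bar at the median of 6. Ifi27l2b, Ifi27l2a, Oas1a, Isg15, Irf7, Ifit1 and Cxcl10 show no overlap between groups, and Stat2, Gbp2, Irf1, Iigp1 and Irgm1 overlap widely.

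Among 6 sensors of nucleic acid 3 rose, none of them 2-fold. Zbp1 (chr2:173206612-173218959), which senses Z-form nucleic acid and can start necroptosis, had 5.81 to 14.9 CPM in oil livers (median 8.19) and 12.4 to 29.7 in CCl4 livers (median 15.8). The groups overlapped slightly. The fold change was 1.96 (log2 0.97 ± 0.27, adjusted p = 0.0112), and with the length correction the adjusted p was 0.0569. Ifih1 (MDA5) rose 1.28-fold (adjusted p = 0.0349) and Dhx58 (LGP2) 1.39-fold (adjusted p = 0.0418).

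Both of those calls were lost when single libraries were left out, at adjusted p up to 0.0988 and 0.101. For Ifih1 these were CCl4 replicates 2, 3 and 6 and oil replicates 1 to 4, and for Dhx58 CCl4 replicates 1, 2, 3, 5 and 6 and oil replicates 1, 3, 4 and 5. Both calls were also lost without a filter and without both libraries richest in short transcripts. Ifih1 further lost its call with the length correction (adjusted p = 0.0826), and Dhx58 with DESeq2 size factors. In all, Ifih1 lost its call in 10 of 20 alternatives and Dhx58 in 12. Ddx58, which encodes RIG-I, did not pass: medians were 26.2 CPM in oil and 26.3 in CCl4 (log2 0.18 ± 0.24, adjusted p = 0.559). Ddx60 did not pass either (log2 0.34 ± 0.19, adjusted p = 0.165). Eif2ak2, the kinase PKR that stops translation on double-stranded RNA, had 9.04 to 14.9 CPM in oil and 6.39 to 13.5 in CCl4 (log2 -0.12 ± 0.20, adjusted p = 0.651). Its sign also turned with upper-quartile scaling and with the length correction.

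The interferon-inducible GTPases divided. Of 9 genes 4 rose and 5 did not pass, with a median log2 fold change of 0.18. RefSeq lists Mx1 and Mx2, like Oas1b, as transcribed pseudogenes. Mx1 (chr16:97447035-97462906), which traps viral ribonucleoproteins in its intact form, had 0.579 to 0.803 CPM in oil livers (median 0.672) and 1.21 to 2.13 in CCl4 livers (median 1.78). No values overlapped, and the fold change was 2.47 (log2 1.30 ± 0.20, adjusted p = 0.000143). Gbp3 rose 1.71-fold (adjusted p = 0.00312), also without overlap.

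Mx2 and Igtp, an IRG protein that guards vacuoles, rose by less: 1.48-fold (adjusted p = 0.0389) and 1.33-fold (adjusted p = 0.0175). Mx2 lost its call in 11 of 20 alternatives, 8 of them leaving out 1 library (from CCl4 replicates 1, 2, 5 and 6 and oil replicates 1, 3, 4 and 5; adjusted p up to 0.0981), and Igtp in 1 (without oil replicate 1, adjusted p = 0.0592). Gbp7 hardly moved, with medians of 10.6 CPM in oil and 10.9 in CCl4 (log2 0.02 ± 0.17, adjusted p = 0.924). Gbp2 stood at medians of 7.02 and 8.36 (log2 0.18 ± 0.19, adjusted p = 0.455).

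The IRG genes Iigp1 and Irgm1, strong targets of interferon gamma, did not pass. Iigp1 had 226 to 445 CPM in oil livers (median 257) and 199 to 302 in CCl4 livers (median 249), with log2 -0.21 ± 0.17 and adjusted p = 0.354. The value of 445 CPM came from oil replicate 5 alone, and the other oil livers lay at 226 to 290. Leaving out single libraries gave log2 changes from -0.29 to -0.04. Irgm1 had 47.1 to 70.7 and 34.1 to 68.0 CPM (log2 -0.22 ± 0.16, adjusted p = 0.284). Gbp6 was the lowest of the 45 in fitted change: 2.08 to 4.54 CPM in oil, 1.77 to 3.58 in CCl4, log2 -0.50 ± 0.21 and adjusted p = 0.0714. In 5 of 20 alternatives Gbp6 passed as fallen, among them those without CCl4 replicate 3 and without oil replicate 5, where its lowest adjusted p was 0.0141.

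Both genes of the ISG15 system rose. Isg15 (chr4:156199424-156200818), a ubiquitin-like protein joined to other proteins, had 5.67 to 11.3 CPM in oil livers (median 7.65) and 14.1 to 52.4 in CCl4 livers (median 23.1). The groups were apart, with a wide spread after CCl4. Its fold change was 3.38 (log2 1.76 ± 0.30, adjusted p = 0.000415). Usp18 (chr6:121245906-121270917), which removes ISG15 and also blocks signalling at IFNAR2, had 4.80 to 7.90 CPM in oil livers and 13.1 to 37.2 in CCl4 livers, a 3.33-fold change (log2 1.74 ± 0.24, adjusted p = 5.79e-05).

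The IFI27 family, small hydrophobic proteins encoded side by side on chromosome 12, held the 2 largest changes of the list. Ifi27l2b (chr12:103450898-103457223) had 4.82 to 7.83 CPM in oil livers (median 5.61) and 57.3 to 110 in CCl4 livers (median 75.6). The lowest CCl4 liver was far above the highest oil liver, and the fold change was 13.2 (log2 3.73 ± 0.19, adjusted p = 2.66e-08). Ifi27l2a (chr12:103433873-103443680) had 2.25 to 6.29 CPM in oil and 11.4 to 100 in CCl4, an 11.2-fold change with the largest error of the list (log2 3.49 ± 0.51, adjusted p = 0.000113).

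Ifi27 (chr12:103434189-103440245) went from 64.3 to 83.1 CPM in oil livers to 124 to 387 in CCl4 livers, 2.75-fold (log2 1.46 ± 0.23, adjusted p = 0.00021). Its span overlaps that of Ifi27l2a on the opposite strand, and whether reads were counted by strand is not known here, which leaves the division of reads between this pair uncertain. Over aligned transcript bases Ifi27l2a shared 78.4% with Ifi27l2b and 67.7% with Ifi27.

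Of the other effectors and regulators 6 of 9 rose. Trim30a (chr7:104409025-104465193), a ubiquitin ligase that damps inflammatory signalling, had 3.65 to 5.77 CPM in oil and 9.76 to 13.6 in CCl4 (2.34-fold, log2 1.23 ± 0.14, adjusted p = 1.2e-05). Ifi44 (chr3:151730922-151749910) had 1.08 to 2.15 and 4.47 to 9.59 CPM (4.39-fold, log2 2.14 ± 0.24, adjusted p = 1.41e-05). In both genes all CCl4 livers exceeded all oil livers.

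The same held for Xaf1, a promoter of apoptosis (2.62-fold, adjusted p = 7.42e-05), for Rtp4 (2.11-fold, 0.000179) and for Bst2, the tetherin that holds budding virus at the cell surface (1.79-fold, 0.000464). Ifi35 rose 1.64-fold with overlap (adjusted p = 0.0384), and this call was lost without any of CCl4 replicates 2, 4 and 6 and oil replicates 1, 2, 3, 4 and 6 (adjusted p up to 0.0898). Without CCl4 replicate 6, the highest of its group, the log2 change went from 0.71 to 0.45, and with the length correction it was 0.11 (adjusted p = 0.441). Rsad2 (viperin) and its neighbour Cmpk2, which make and supply an antiviral nucleotide, did not pass, with log2 changes of 0.38 ± 0.23 and 0.13 ± 0.14. Parp14 did not pass either (medians 24.3 and 23.2 CPM, log2 0.10 ± 0.21, adjusted p = 0.715).

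The single chemokine on the list, Cxcl10 (chr5:92346638-92348889), which draws CXCR3-bearing T and NK cells, rose 2.52-fold. Its level was 1.76 to 3.46 CPM in oil livers (median 2.72) and 4.23 to 9.01 in CCl4 livers (median 6.14), without overlap (log2 1.34 ± 0.22, adjusted p = 0.000277).

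Compared per kilobase of exon, which allows levels of different genes to be set side by side, Bst2 ranked first among the members in both groups, at a mean of 183 CPM per kilobase in oil and 326 in CCl4. Ifi27 was second in both (51.3 and 141). Iigp1 moved from rank 3 in oil (49.0) to rank 5 in CCl4 (42.4). Ifi27l2a moved from rank 9 to rank 3 (7.76 to 86.9) and Ifi27l2b from rank 12 to rank 4 (5.46 to 72.3). Oas3 had the lowest level in both groups (0.09 and 0.313). Mx1 had no exon length and is not ranked.

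Short members rose more often than long ones. The 29 risen members with a known exon length had a median of 2656 bases, and the 15 that did not pass had 5614. In classes set after the values were seen, all 14 members of up to 2500 bases rose (median log2 1.37), 11 of 16 of middle length rose (0.75) and 4 of 14 over 5000 bases did (0.14). Over all tested genes in the same classes 29.2%, 23.4% and 15.4% rose, with medians of 0.27, 0.08 and -0.17. Libraries differed in this respect. In each library, the log2 level of a gene minus its mean over the 12 libraries was fitted on log2 length. This slope, relative to the average library, was lowest in CCl4 replicate 6 (-0.31). That library was the highest of its group for 23 of the 45 members.

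With each library's slope as a covariate, 30 members rose, 1 fell and the median was 0.76. The slope was on average higher in oil (0.08) than in CCl4 (-0.08), so the covariate shares part of the group difference. The 3 largest moves were downward in short genes: Ifi27l2a went from 3.49 to 2.16, Isg15 from 1.76 to 1.08 and Ifi35 from 0.71 to 0.11. Of the 14 members of up to 2500 bases 12 moved down and 2 up, and of the 14 over 5000 bases 9 moved up and 5 down. Oas3 went from 1.78 to 2.29, Ddx58 from 0.18 to 0.62 (adjusted p = 0.00228) and Parp14 from 0.10 to 0.47 (adjusted p = 0.00168), while Iigp1 then passed as fallen (log2 -0.42, adjusted p = 0.031). The part of transcript length in the members' calls was not tested beyond this covariate.

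**Figure D4:**
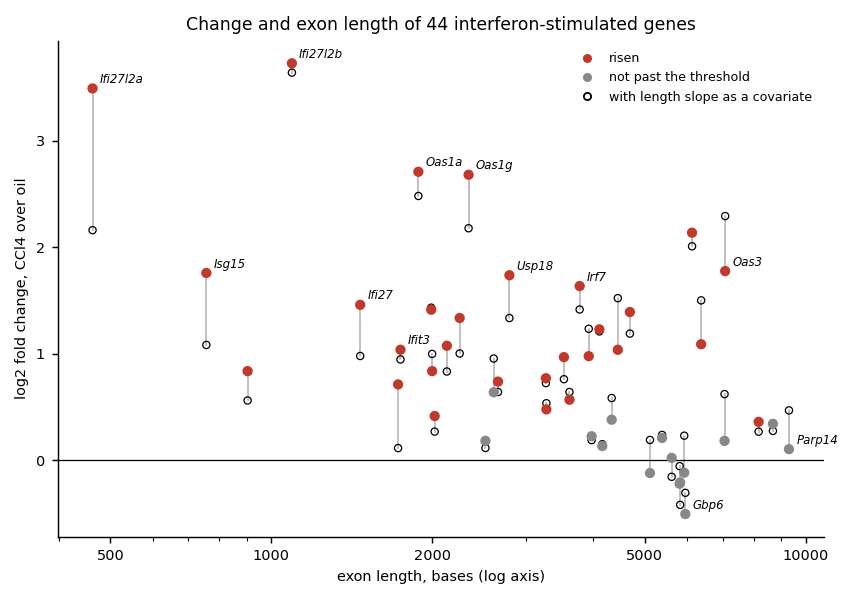
Fitted log2 fold change (CCl4 over oil, y axis) against exon length in bases (x axis, log scale) for the 44 members with a length; filled points are the fit without the covariate (red risen, grey not passed) and open circles the fit with the length slope, joined by a line. Short genes such as Ifi27l2a (3.49 to 2.16) move down and some long genes such as Parp14 (0.10 to 0.47) move up.

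The interferons themselves were barely detected. Of 12 interferon genes 8 had no count in any of the 12 libraries, and the 12 genes together had 57 counts. Ifnb1, interferon beta, had no count in the oil libraries and 4 counts in 2 CCl4 libraries. Ifng had 13 counts over all oil libraries and 9 over all CCl4 libraries. None passed the filter. The limit that a count of 0 allows is 3 counts, so low levels were not detectable at this depth. By library totals alone, without the TMM factors used for other levels here, that limit corresponds to between 0.0426 and 0.0697 CPM per library. This range is therefore not directly comparable with the TMM-scaled levels.

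Of 6 receptor genes 4 rose (66.7%, beside 20.6% of all tested genes), 1 fell and 1 did not pass. Il10rb, shared by the interferon lambda and interleukin-10 receptors, had 8.5 to 9.57 CPM in oil and 16.5 to 19.9 in CCl4 (log2 1.07 ± 0.10, adjusted p = 3.24e-06). Ifngr1, the ligand-binding chain for interferon gamma, had 16.4 to 20.3 and 27.7 to 36.3 CPM (log2 0.83 ± 0.11, adjusted p = 4.07e-05). Ifngr2 (log2 0.92 ± 0.26, adjusted p = 0.0139) and Ifnlr1 (log2 1.49 ± 0.32, adjusted p = 0.00246) also rose. The change of Ifnlr1 rests on few reads. Its level was 0.0468 to 0.14 CPM in oil (28 counts in all) and 0.192 to 0.398 in CCl4 (112 counts in all). With the length correction the change of Ifngr2 was 0.30 (adjusted p = 0.00994).

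The chains of the type I receptor did not. Ifnar2 fell by 0.39 on the log2 scale (± 0.12, adjusted p = 0.0223), from a median of 77.4 to 59.3 CPM, a call that was lost with upper-quartile scaling. Ifnar1 did not pass, with medians of 37.4 and 32.2 CPM (log2 -0.25 ± 0.12, adjusted p = 0.105).

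Of 11 genes of the JAK-STAT signal and its brakes 0 passed by edgeR's quasi-likelihood test, where 39.0% of all tested genes did. The median log2 change of the 11 was -0.10. At an unadjusted p under 0.05 there were 2 (Jak2 and Ptpn6), and DESeq2 called 1 gene and limma-voom 3. Jak1 (log2 -0.10 ± 0.10, adjusted p = 0.48), Tyk2 (-0.21 ± 0.15, 0.279) and the brake Socs1 (0.18 ± 0.43, 0.754) did not pass, and each turned sign in at least 1 alternative. The smallest p-values were those of Jak2 (log2 -0.37 ± 0.16, adjusted p = 0.0725), Ptpn6 (0.26 ± 0.11, 0.0789) and Ptpn11 (-0.43 ± 0.21, 0.121).

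Genes of the steps that lead to interferon production changed in both directions. Beside 20.6% risen and 18.4% fallen over all tested genes, 6 of these 18 rose (33.3%) and 3 fell. Those that rose with the smallest p-values were Irf8 (log2 0.94 ± 0.11, adjusted p = 1.92e-05), a factor of myeloid cells, Tlr7 (1.32 ± 0.17, 3.6e-05), the endosomal sensor of single-stranded RNA, and Sting1 (1.10 ± 0.18, 0.000323). Cgas, which makes the messenger that STING reads from cytosolic DNA, had 0.279 to 0.728 CPM in oil and 0.663 to 1.15 in CCl4 (log2 1.36 ± 0.26, adjusted p = 0.000843). Tlr3, the endosomal sensor of double-stranded RNA, did not pass (0.29 ± 0.17, 0.173).

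The 3 genes of this list that fell were Mavs, Irf3 and Tbk1. Mavs, the mitochondrial adaptor of RIG-I and MDA5, had 88.3 to 114 CPM in oil livers and 36.1 to 81.6 in CCl4 livers, with no overlap (log2 -0.75 ± 0.18, adjusted p = 0.00557). Irf3 fell by 0.37 on the log2 scale (± 0.10, adjusted p = 0.0112, lost with upper-quartile scaling) and Tbk1, the kinase that activates it after sensing of RNA or DNA, by 0.42 (± 0.14, adjusted p = 0.0321). The call of Tbk1 was lost in 8 of 20 alternatives, 4 of which each left out 1 library (CCl4 replicates 2 and 6, oil replicates 3 and 6; adjusted p up to 0.0737). Of 8 genes that clear or edit nucleic acid 2 rose (25%), a share near the 20.6% of all tested genes. They were Dnase2a, the lysosomal DNase (log2 0.87 ± 0.22, adjusted p = 0.00677), and Rnaseh2b (0.62 ± 0.21, 0.0292). With the length correction these changes were 0.38 (adjusted p = 0.0384) and 0.17 (adjusted p = 0.253), and Rnaseh2b also lost its call without any 1 of CCl4 replicates 2, 4 and 6 and oil replicates 1, 3 and 6 (adjusted p up to 0.0798). The other 6 did not pass, Dnase1l3 with the smallest p among them (-0.35 ± 0.17, 0.122).

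**Figure D5:**
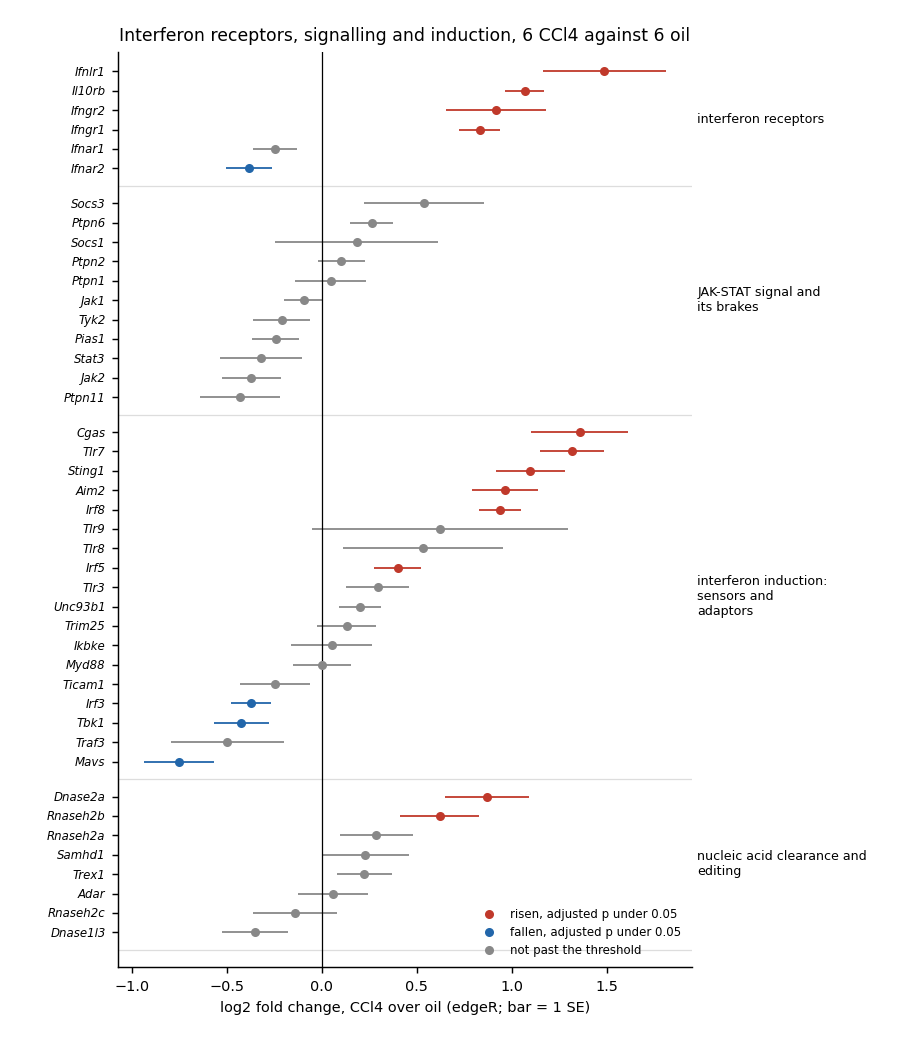
Fitted log2 fold change (CCl4 over oil, x axis, bars 1 standard error) of the genes of the interferon receptors, the JAK-STAT signal, interferon induction and nucleic acid clearance; red rose, blue fell and grey did not pass. Receptor chains for interferon gamma and lambda lie to the right and Ifnar2, Mavs, Irf3 and Tbk1 to the left, while the JAK-STAT block lies around 0.

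A further list of 70 interferon-inducible genes, of which 67 were tested, had 24 risen and 7 fallen and a median log2 change of 0.30. Its share of rises, 35.8%, lay between that of the 45 members and that of all tested genes. Ly6a (Sca-1) had 4.14 to 8.62 CPM in oil and 15.9 to 31.8 in CCl4 (log2 1.87 ± 0.21, adjusted p = 1.45e-05), and Ly6e, a restrictor of coronavirus entry, 179 to 285 and 502 to 843 CPM (log2 1.39 ± 0.16, 1.55e-05). Ifi211, of the interferon-inducible p200 family of DNA-binding proteins, rose 4.32-fold (adjusted p = 2.54e-05). Against the majority, the aminopeptidase gene Lap3 fell by 0.50 on the log2 scale (± 0.12, adjusted p = 0.00408), from a median of 409 to 306 CPM.

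Markers of other cells moved in the same livers, where 20.6% of all tested genes rose and 18.4% fell. Of tested Kupffer cell markers 4 of 8 rose and 1 fell, and of sinusoidal endothelial markers 2 of 9 rose and 1 fell. Rises numbered 6 of 9 for conventional dendritic cells, 5 of 8 for B cells and 1 of 5 for neutrophils, with 0 fallen in these lists. Of 10 general macrophage markers 8 rose, and their summed level was 183.5 to 239.1 CPM in oil and 438.2 to 621 in CCl4; Adgre1 rose and Csf1r did not pass (log2 0.41, adjusted p = 0.0684). Among monocyte markers 8 of 10 rose, Ccr2 going from a median of 1.59 to 12.6 CPM, and 1 fell (Nr4a1, log2 -4.26). The summed level of that list, most of it Fn1, which did not pass, was 1050 to 2515 CPM in oil and 776 to 1839 in CCl4. Of 8 tested markers of plasmacytoid dendritic cells, the main makers of type I interferon, 5 rose, a list that holds the members' own Bst2 and also Irf8, described above. Siglech, specific to those cells, had 0.0936 to 0.204 CPM in oil (44 counts in all) and 0.596 to 1.12 in CCl4 (log2 2.45, adjusted p = 7.41e-06). Ccr9 (log2 0.40, adjusted p = 0.408), Tcf4 (0.11, 0.537) and Spib (0.70, 0.0612) did not pass, and Klk1 and Pacsin1 were not tested.

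T and NK cells are the main makers of interferon gamma. Among T cell markers 2 of 9 rose (Cd8a and Cd8b1) and 1 fell (Cd4, log2 -1.92), and of 8 tested NK cell markers 0 rose and 1 fell (Prf1, log2 -1.13). The call of Prf1 (adjusted p = 0.0353) was lost with upper-quartile scaling, without a filter, with the length correction and without both libraries richest in short transcripts. It was also lost without any 1 of CCl4 replicates 3 to 6 and oil replicates 2 to 4 (adjusted p up to 0.0958). Cd3e was at a median of 0.520 CPM in oil and 0.472 in CCl4 and Klrb1c at 0.574 and 0.601, and the summed levels were 4.66 to 7.07 and 3.72 to 7.29 CPM for the T cell list and 3.67 to 4.77 and 2.77 to 6.57 CPM for the NK list. Of 9 hepatocyte markers 0 rose and 3 fell (Hnf4a, log2 -1.05, Apob, -0.69, and Cps1, -0.54), and their sum, most of it Alb, was 113625 to 157146 CPM in oil and 116566 to 164345 in CCl4. All 8 markers of pericentral hepatocytes fell (median log2 -3.12), and all 8 of stellate cells and myofibroblasts rose (median 2.61). The part of cell composition in the members' changes was not tested.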

How the data were processed

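The authors deposited read counts per gene, whole numbers without normalisation, for 12 mouse livers; the 12 sample files equalled the table of the series. Per the labels' protocols, RNA was purified with the Qiagen RNeasy kit and libraries made with the Illumina TruSeq Stranded Total RNA kit. The build was GRCm38, per the submitters' processing notes. Which aligner, counter and annotation were used, and whether counting was stranded, is not given in the sources used here. Spans of 10 members overlap another gene, and close copies may share reads.

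Groups were taken from the labels; replicate numbers only name samples. Names came from RefSeq for GRCm38.p6 (31049 of 36528 IDs; unnamed IDs took 2.20% of counts), and exon lengths from GENCODE for the same build. The test was edgeR's robust quasi-likelihood F test (edgeR 4.0.16, R 4.3.3) after filterByExpr and TMM scaling, with Benjamini-Hochberg adjustment and a threshold of 0.05. Log2 CPM had a prior count of 2 added. The SE is the log2 fold change divided by the square root of F.

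The members, lists and tests were chosen with earlier results of these data known. Every member could be named. Described in full were, per role, the members with the smallest p, the largest rise and the largest p; of pathway lists, a set of fixed genes, the 3 smallest p-values and the called gene against the majority. Some genes are not reported here and were left out of the counts over their lists.

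The alternatives tried were scaling by upper quartile or by DESeq2 size factors, DESeq2 1.42.0 or limma-voom with quality weights (limma 3.58.1) as the test, testing unfiltered genes or those with 50 counts in 6 libraries, a covariate for length slope, and removing libraries in turn. Leaving out both libraries richest in short transcripts was added after the data were seen. The scripts were tested on simulated data.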

Additional observations from a re-analysis of the deposited data

Results flagged for a closer look

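Of 144 sets of 6 livers examined, 9 held a liver far from the other 5, where chance flags about 1 in 20. A set was the log2 CPM of 1 gene in 1 group, and a liver stood apart where its gap to the next, divided by the whole range, exceeded Dixon's critical value for 6 samples. Of the members, Ifit3b (0.58) and Oas1b (-0.11) were lowest in CCl4 replicate 4, where the other CCl4 livers lay at 0.87 to 1.02 and 0.79 to 1.30. Ifih1 was lowest in oil replicate 3 (4.51, others 4.84 to 4.98), and Iigp1 was highest in oil replicate 5 (8.80, others 7.82 to 8.18).

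Of the pathway genes, Jak1 (7.07) and Sting1 (1.56) were highest in oil replicate 6, where the other oil livers lay at 6.65 to 6.77 and 1.04 to 1.13. Cgas was highest in oil replicate 5 (-0.39, others -1.67 to -1.36) and lowest in CCl4 replicate 1 (-0.52, others 0.0026 to 0.25). Socs1 was highest in CCl4 replicate 6 (-0.074, others -1.81 to -1.22).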

How the results depend on the processing

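Over the alternatives run, 25 to 32 members rose, and the median log2 change stayed between 0.68 and 0.95. Of the 30 risen members 24 passed under each of the 20 alternatives and 6 did not (Ifih1, Dhx58, Mx2, Ifi35, Zbp1 and Igtp); of the 15 others, 6 passed under at least 1. The count of fallen members was 1 with DESeq2, limma-voom, the length slope and without both libraries richest in short transcripts (an alternative chosen after seeing the data), and 0 to 1 when single libraries were left out. Fallen pathway genes numbered 11, 6 with upper-quartile scaling, which put the median of all genes at 0.13, and 20 with limma-voom. With the stricter motif the share of members with a match was 45.2%.

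Signs turned for changes near 0, and the cause was not tested. With upper-quartile scaling Stat2 stood at 0.0079, Eif2ak2 at 0.0027 and Jak1 at 0.026. With the length slope Stat2 stood at 0.23, Eif2ak2 at 0.19, Gbp7 at -0.16, Tyk2 at 0.046 and Socs1 at -0.38. Parp14 was at -0.021 with limma-voom, and Gbp7 at -0.014 without both short-transcript libraries. Leaving out single libraries gave -0.079 to 0.22 for Parp14, -0.071 to 0.078 for Gbp7 and -0.17 to 0.65 for Socs1. No paired analysis was possible because the replicate numbers were given in accession order and pair no livers. Genes under about 1 CPM, such as Oas1g and Oas3 in oil, rest on few counts.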

Other observations

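The guanylate-binding protein genes, set side by side after their values were seen, numbered 10, on 2 chromosomes. Of the 4 on chromosome 3, Gbp3 rose, and Gbp2, Gbp5 and Gbp7 did not pass. Of the 6 on chromosome 5, Gbp10 and Gbp11 fell, Gbp8 rose, and Gbp4, Gbp6 and Gbp9 did not pass. Over all tested genes 20.6% rose and 18.4% fell, and the shares among these 10 genes were similar. A difference between the 2 chromosomes was not tested. Gbp10 had 1.30 to 4.10 CPM in oil livers (median 2.79) and 0.549 to 1.97 in CCl4 livers (median 0.838), with a log2 change of -1.30 ± 0.36 and an adjusted p of 0.0105 by edgeR. Gbp11 had 2.37 to 9.18 and 1.34 to 3.36 CPM (log2 -1.06 ± 0.33, adjusted p = 0.0199). In the fit that held the length slope the changes were -0.87 and -0.97, with adjusted p-values of 0.0615 and 0.0654. Gbp8 changed by 0.45 ± 0.17 (adjusted p = 0.0469) and lost its call when any 1 of 10 libraries was left out (all but CCl4 replicate 5 and oil replicate 2). Gbp6 and Gbp10 were 98.3% identical over 2592 aligned transcript bases, so reads may be divided between them.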
